A study of Mus musculus with 3 samples.

Results

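The genes described here carry peptides to the cell surface on major histocompatibility complex (MHC) class I molecules or belong to the interferon response that governs them. They were H2-K1, H2-D1, B2m, Tap1, Psmb8, Psmb9, Irf1, Irf7 and Isg15, measured in the developing mouse tooth. A probe set was taken where the platform annotation gave it a single symbol and that symbol was one of the 9 genes. This gave 24 probe sets of 8 genes, out of 45101 probe sets and 18193 genes in the series. Isg15 had no such probe set, because its only one carries 2 symbols, and it has no value here.

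Dental papillae, the mesenchyme enclosed by the tooth germ that later forms dentine and pulp, came from lower first molars of ICR mice on embryonic day 16 (E16), embryonic day 18 (E18) and postnatal day 3 (P3). Papillae were separated with enzyme, and RNA of over 20 of them was pooled for each stage and amplified by 2-cycle labelling to biotinylated cRNA. Each stage had 1 array and all groups shared the strain and carried no stated treatment, so age was the only labelled difference. Without replicates there is no p-value, standard error or interval, and every difference below is one between pools of papillae.

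MHC class I molecules consist of a heavy chain, such as H2-K1 or H2-D1, held together with beta-2-microglobulin (B2m) and a short peptide. The peptides are cut by the proteasome, in which Psmb8 and Psmb9 replace standard catalytic subunits in cells exposed to interferon, and the transporter Tap1 with Tap2 moves them into the endoplasmic reticulum. Irf1 and Irf7 are transcription factors of the interferon response, and Isg15 encodes a ubiquitin-like protein that interferon induces.

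The promoters of the genes on which the results turn are shown first because interferon acts on this pathway largely through short elements near the start sites. They are windows of 300 bases, 250 before to 50 after the start, taken from RefSeq on GRCm38.p6 and printed 5′ to 3′ on the gene's strand. Capitals mark matches on either strand to AAANNGAAA, the core of the interferon-stimulated response element (ISRE), to TTCNNNGAA, the gamma-activated site, to GGGNNTTCC, a kappa B site, or to AANNGAAA, a looser element of IRF proteins. The last was added after the windows had been looked at and overlaps the ISRE core. The B2m window lies at chr2:122147437-122147736 on the plus strand, that of Irf1 at chr11:53769764-53770063 on the plus strand, that of H2-K1 at chr17:34000298-34000597 on the minus strand and that of H2-D1 at chr17:35262844-35263143 on the plus strand.
B2m: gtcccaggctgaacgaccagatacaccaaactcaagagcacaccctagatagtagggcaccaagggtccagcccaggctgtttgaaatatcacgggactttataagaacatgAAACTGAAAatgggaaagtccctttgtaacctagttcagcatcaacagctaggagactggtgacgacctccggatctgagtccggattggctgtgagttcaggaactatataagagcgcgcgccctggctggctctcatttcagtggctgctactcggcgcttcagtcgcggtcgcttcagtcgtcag
Irf1: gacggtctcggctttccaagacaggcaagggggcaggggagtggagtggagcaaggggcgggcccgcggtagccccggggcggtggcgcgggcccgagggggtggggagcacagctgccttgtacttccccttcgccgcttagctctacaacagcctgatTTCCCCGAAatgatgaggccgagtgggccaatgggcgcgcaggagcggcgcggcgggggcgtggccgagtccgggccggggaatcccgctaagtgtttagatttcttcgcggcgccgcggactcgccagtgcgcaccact
H2-K1: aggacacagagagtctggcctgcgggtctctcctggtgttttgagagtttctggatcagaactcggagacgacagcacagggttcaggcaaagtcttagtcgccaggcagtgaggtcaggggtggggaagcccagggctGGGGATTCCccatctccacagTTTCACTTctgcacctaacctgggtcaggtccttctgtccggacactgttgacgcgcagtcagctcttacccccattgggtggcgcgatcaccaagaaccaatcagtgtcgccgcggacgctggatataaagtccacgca
H2-D1: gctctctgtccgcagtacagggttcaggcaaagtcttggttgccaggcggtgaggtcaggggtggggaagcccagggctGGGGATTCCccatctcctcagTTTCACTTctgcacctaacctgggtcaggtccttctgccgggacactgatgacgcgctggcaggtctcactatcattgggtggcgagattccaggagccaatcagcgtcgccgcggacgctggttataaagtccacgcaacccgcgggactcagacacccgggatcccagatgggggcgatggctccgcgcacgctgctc

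Among 32851 RefSeq windows of this length, 10.6% held the ISRE core, 8.3% the gamma-activated site, 5.82% the kappa B site and 23.9% the looser IRF element. In B2m an ISRE core match began 138 bases before the start. In Irf1 a gamma-activated site match began 90 bases before the start. Another Irf1 window, at chr11:53770223-53770522, held no match to any of the motifs. H2-K1 and H2-D1 each held a kappa B match, 111 and 171 bases before their starts, followed by a match to the looser IRF element. Their windows were alike over most of their length, with 211 of 239 aligned bases identical (88.3%). The Isg15 window held 3 overlapping ISRE core matches, and that of Psmb8 held 1 gamma-activated site match. A match is a string of letters and not a site shown to be used.

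Tap1 and Psmb9 lie head to head on chromosome 17, between H2-K1 and H2-D1, and share the DNA between their starts. Psmb9 and 2 of the Tap1 probe sets had their lowest signal at E18, under the floor, as described below. The brightest Tap1 probe set was instead higher at E18 than at E16. Any part of the shared DNA in these values was not tested. The Tap1 window at chr17:34187306-34187605, plus strand, is printed with the 225 bases between the start of Psmb9 and that of Tap1 in capitals, and it overlaps the Psmb9 window, which is read on the minus strand, by 275 bases.
Tap1: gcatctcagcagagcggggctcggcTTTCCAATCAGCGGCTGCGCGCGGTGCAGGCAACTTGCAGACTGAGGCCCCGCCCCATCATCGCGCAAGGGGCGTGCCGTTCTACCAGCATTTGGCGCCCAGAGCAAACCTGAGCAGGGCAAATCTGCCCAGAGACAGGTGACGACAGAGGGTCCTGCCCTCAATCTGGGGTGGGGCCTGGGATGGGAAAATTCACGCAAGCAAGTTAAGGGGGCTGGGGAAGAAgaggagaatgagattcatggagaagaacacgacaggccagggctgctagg
None of the 4 motifs was found in the windows of Tap1, Psmb9 or Irf7, which says only that these letters are not there.

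Values are recovered signals, the array's intensity units worked back from deposited ratios. A recovered signal can be too low by a whole factor common to the 3 arrays, but not too high, and ratios between stages are untouched by this. The floor was a signal of 82, the median of all values. The 27 bacterial control probe sets other than the spike-ins described below have no target in mouse RNA and reached at most 70.2. That maximum is a recovered signal too and can be too low. A signal under the floor was set to it before a fold change was taken, so that the fold is then a lower bound. Differences between stages are taken within a probe set. Levels of different probe sets are set against each other in choosing a gene's brightest probe set and are added in summed marker signals. An understated level could therefore change which probe set stands for a gene. For H2-K1 at E18 against E16 this choice sets the sign. The log2 difference was -0.62 in 1425336_x_at, the one taken, and 0.44 in 1451931_x_at. Of the 24 probe sets, 10 reached the floor on at least 1 array and 7 on all 3. The other 14 stayed under it, and of these 4 had a level that is known and 10 a level that may be understated.

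**Figure D1:**
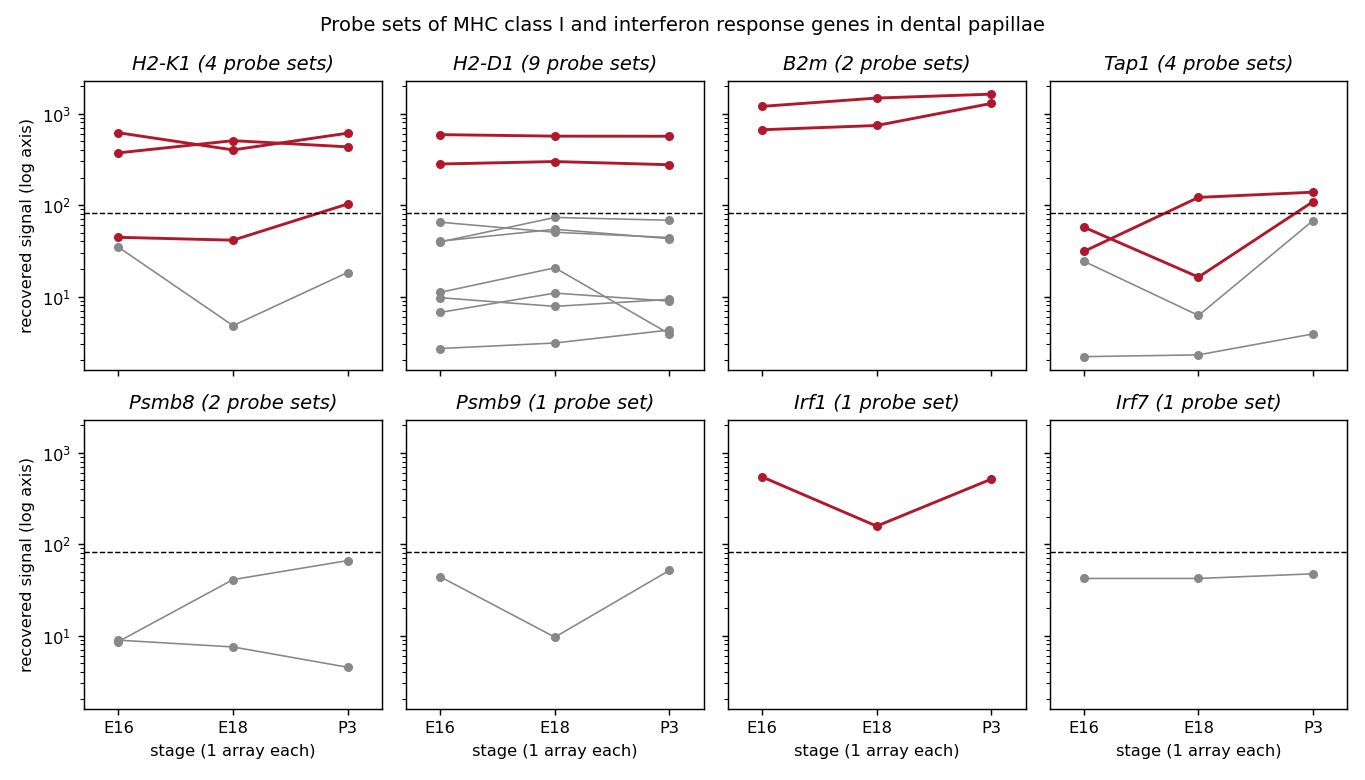
Recovered signal (log axis) of the 24 probe sets of 8 genes at E16, E18 and P3, 1 array per stage. Red lines reached the floor of 82 (dashed) on at least 1 array and grey lines did not; both B2m probe sets rise at each step, and Irf1 is low at E18 alone.

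H2-K1 and H2-D1, the classical class I heavy chains, each had probe sets above the floor at all stages. In their brightest probe sets neither moved by 2-fold at any step. The brightest H2-D1 probe set gave 589.2, 566.8 and 565.7 at E16, E18 and P3. These values lay within 1.04-fold of one another. The next, 1451784_x_at, gave 281.2, 299.0 and 276.1, with no 2-fold move either. The other 7 H2-D1 probe sets stayed under the floor on every array, between 2.7 and 73.2.

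The H2-K1 probe sets did not run in one direction. Probe set 1425336_x_at gave 617.6 at E16, 400.7 at E18 and 611.1 at P3. The E18 value was 1.54-fold below that of E16, and P3 was 1.52-fold above E18. Probe set 1451931_x_at gave 372.2, 506.1 and 433.1, which is 1.36-fold higher at E18 than at E16. Probe set 1450534_x_at gave 44.4, 41.3 and 102.7, a rise to P3 of at least 1.25-fold. The last gave 34.6, 4.8 and 18.3, all under the floor.

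Of the 13 probe sets of these heavy chains, 11 carry the suffix _x_at, which marks probes that may bind related transcripts as well. Every one that reached the floor carries it. Those without it, H2-D1 probe sets 1451934_at and 1426324_at, stayed under the floor on every array. ICR is an outbred stock, and class I heavy chains differ greatly between haplotypes in mice. How far each probe set matches the alleles of these animals, or the RNA of other class I genes, was not tested. The opposite moves of the H2-K1 probe sets at E18 are therefore given as they stand.

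B2m, the light chain shared by all class I molecules, was the only one of the 5 genes that reached the floor whose signal went up at both steps in every probe set. Probe set 1449289_a_at gave 1200, 1479 and 1632. It was 1.23-fold higher at E18 than at E16 and 1.36-fold higher at P3 than at E16. Probe set 1452428_a_at gave 665.9, 741.3 and 1292. It was 1.11-fold higher at E18 and 1.94-fold higher at P3 than at E16. The probe sets shared the direction and differed in where the step fell, since the first moved mostly between E16 and E18 and the second mostly between E18 and P3. Papillae are bulk tissue, so fewer cells of a type and less RNA per cell cannot be told apart in any of these values.

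Tap1, which pairs with Tap2 in the peptide transporter, was low at E16 and above the floor at P3 in 2 of its 4 probe sets. Probe set 1449803_x_at gave 31.1, 121.3 and 138.3, higher than at E16 by at least 1.48-fold at E18 and at least 1.69-fold at P3. Probe set 1416016_at gave 57.3, 16.3 and 109.1, and P3 was at least 1.33-fold higher than either embryonic stage. Probe set 1420274_at had the same low point at E18, with 24.3, 6.2 and 67.7, all under the floor. The fourth gave 2.2, 2.3 and 3.9. All 4 probe sets were highest at P3, whereas at E18 they were split, 2 lying above their E16 value and 2 below it.

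Psmb9, an interferon-inducible proteasome subunit, gave 43.9, 9.6 and 51.6 in its single probe set. It stayed under the floor, with its low point at E18, as in Tap1 probe sets 1416016_at and 1420274_at. Psmb8, the other inducible subunit of the set, gave 8.6, 40.9 and 66.0 in probe set 1422962_a_at, highest at P3, and 8.9, 7.5 and 4.5 in 1444619_x_at, lowest at P3. For probe set 1444619_x_at the level is known, while for Psmb9 and for 1422962_a_at it may be understated.

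Irf1, which activates class I, Tap1 and Psmb9 genes in cells exposed to interferon gamma, made the largest move among genes with both arrays above the floor. Its single probe set gave 543.1 at E16, 157.2 at E18 and 513.3 at P3. E18 was 3.46-fold lower than E16, and P3 was 3.27-fold higher than E18. E16 and P3 were within 1.06-fold of each other. Only 1.1% of the 12030 genes measured at E16 and E18 had a lower log2 difference, and 99% of the 12112 measured at E18 and P3 had a lower one than Irf1 in that step. Both steps rest on the same E18 array and are a single low value, not 2 separate observations. Irf7, the main amplifier of type I interferon production, gave 42.1, 42.1 and 47.3, under the floor and level across stages. The level of Irf7 may be understated.

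The arrays also differed in measures of quality and of other cell types. The 18 spike-in control probe sets were at a median of 2.17 times their E16 signal at E18 and 1.04 times at P3. The ratio of 3′ to 5′ actin signal, a measure of RNA length, was 3.87 times that of E16 at E18 and 2.46 times at P3, while for Gapdh it was 1.42 and 0.36 times. Spike-in signals thus stood apart at E18, the actin ratio was lowest at E16 and the Gapdh ratio lowest at P3. Epithelial markers were highest at E18, with a median log2 difference of 1.67 at E18 against E16 and -1.71 at P3 against E18. The summed signal of the 16 markers was 9676, 28375 and 14040 at E16, E18 and P3, and 13, 14 and 14 of them reached the floor. Endothelial markers had medians of -0.78 and 0.42 in these steps and summed signals of 5166, 2652 and 3038 over 12 markers. Such sums weigh each probe set by its recovered level and share its limit. The part of these differences in the values of the class I and interferon genes was not tested.

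Counted by gene, with the brightest probe set of each, 5 of the 8 genes could be measured and Psmb8, Psmb9 and Irf7 could not. Between E16 and E18 no gene of the 5 gained 2-fold (0 genes) and 1, Irf1, lost 2-fold, against 8.1% and 8.13% of all genes measured. Between E18 and P3, 1 was at least 2-fold higher, again Irf1, and 0 lower, against 4.07% and 11.8% of all genes. Between E16 and P3 none passed 2-fold in either direction, against 6.56% higher and 15.6% lower over all genes. The median log2 difference of the 5 genes was -0.06, 0.19 and -0.02 in these 3 comparisons, against -0.04, -0.15 and -0.17 over all genes. The first and last of them were 0.02 and 0.35 after quantile normalization, so their signs depend on the scaling.

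The only look at measurement error is the disagreement between probe sets of a gene. The differences given by the 2 brightest probe sets of a gene lay a median of 0.52 apart on the log2 scale for E18 against E16, over 4047 genes. The 90th percentile of that disagreement was 1.4. The Irf1 differences of -1.79 and 1.71 exceed these, although Irf1 has no other probe set to compare with. The H2-K1 and B2m differences do not exceed that 90th percentile. This spread leaves out any error shared by a whole pool or array.

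The genes closest to the median course of the 4 members that reached the floor on every array were Sv2a, Bcl9l, Ikzf2, Tm7sf3 and Natd1. Their distances, over the log2 differences of both steps, were 0.018 to 0.027. Of 9857 candidate genes, 100 lay within 0.1 of that course, so many genes share it. The course was -0.34 at E18 against E16 and 0.38 at P3 against E18. None of the 4 members lay within 0.1 of it. Their differences in these steps were -0.62 and 0.61 for H2-K1, -0.06 and 0 for H2-D1, 0.3 and 0.14 for B2m, and -1.79 and 1.71 for Irf1. The genes named are thus close to a median and not to any member.

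Other genes of the pathway were taken from fixed lists, which were drawn up with earlier results of these data known. Among 24 other class I heavy chains and class I-like genes, 11 had a probe set and 6 could be measured. At E18 against E16, 0 were 2-fold higher and 2 lower, and at P3 against E18, 2 were higher and 0 lower. The shares of all genes were 8.1% higher and 8.13% lower in the first of these steps and 4.07% and 11.8% in the second. After quantile normalization 0 were 2-fold lower in the first step, and 1 was after setting the median difference of genes above the floor to 0. The 2 higher in the second step remained in both settings. Fcgrt, the neonatal Fc receptor heavy chain that carries antibody across cell layers, gave 769.7, 369.6 and 1188, 2.08-fold lower at E18 and 3.21-fold higher at P3 than at E18. H2-T3, a thymus leukaemia antigen, gave 192.0, 93.8 and 124.7, 2.05-fold lower at E18. Hfe, which regulates iron uptake, gave 158.5, 165.8 and 420.0, 2.65-fold above E16 at P3, but its other probe set gave 82.2, 67.4 and 9.1.

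Of 12 genes for peptide supply and loading, 11 had a probe set, and 8 could be measured at P3 against E16. None of these (0) passed 2-fold between E16 and P3, against 6.56% higher and 15.6% lower over all genes. Their median log2 difference was 0.47. Psmb10, the third inducible catalytic subunit, gave 121.2, 91.0 and 179.7, 1.98-fold higher at P3 than at E18. Tapbp, the tapasin that docks class I molecules at the transporter, gave 235.5, 175.6 and 317.7, with the same order of stages. Psme1, a subunit of the interferon-inducible proteasome activator, gave 108.3, 223.4 and 200.4, 2.06-fold higher at E18 than at E16. Tap2, the partner of Tap1, gave 6.8, 8.9 and 57.9, all under the floor. Canx, the chaperone calnexin, gave 1886, 2137 and 948.7, 2.25-fold lower at P3 than at E18, as was a second probe set with 534.2, 308.1 and 137.0, whereas another gave 535.2, 593.0 and 552.1.

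The standard 20S proteasome was on balance lower at P3 than at E18. Of 16 genes, which include the activator Psme3 and the assembly factor Pomp, 3 had gained 2-fold by E18 and 0 had lost it, while from E18 to P3 0 gained 2-fold and 9 lost it. Over all genes 8.1% had gained 2-fold by E18, and 11.8% lost it from E18 to P3. The median log2 difference of the second step was -1.07. After quantile normalization 1 gene was past 2-fold, with a median of -0.54, and after setting the median difference of genes above the floor to 0 it was 3 genes, with a median of -0.87. Between E16 and P3, 0 genes were 2-fold higher and 3 lower, against 6.56% and 15.6% of all genes. The median of that comparison was -0.27, turning to 0.04 after quantile normalization. Psmb7, a standard catalytic subunit, gave 1591, 929.1 and 266.0, 5.98-fold lower at P3 than at E16. Psmb6, the standard subunit that Psmb9 replaces, gave 2787, 1973 and 929.4, 3.00-fold lower at P3 than at E16. Psmb5, the one that Psmb8 replaces, gave 1558, 1584 and 677.1, 2.30-fold lower at P3 than at E16. All 3 standard catalytic subunits were lowest at P3, the stage at which Psmb9, Psmb10 and the brighter Psmb8 probe set gave their highest values, those of Psmb8 and Psmb9 under the floor. Psmb4 gave 2741, 4737 and 1806, Psma1 652.6, 708.9 and 332.3, and Psma7, which was 2.03-fold higher at E18, 366.0, 742.6 and 679.7.

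**Figure D2:**
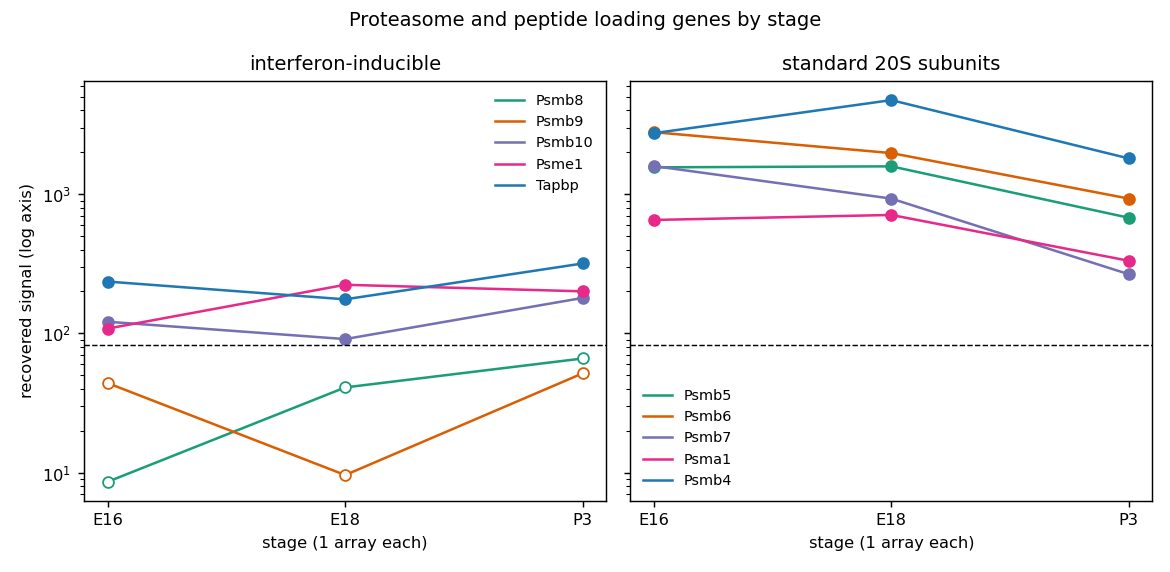
Recovered signal (log axis) of 5 interferon-inducible genes and 5 standard 20S proteasome subunits at E16, E18 and P3, brightest probe set of each, 1 array per stage. Open points lie under the floor of 82 (dashed), and Psmb8 and Psmb9 stay under it. The 5 standard subunits drawn are lowest at P3, whereas Psma7, not drawn, is lowest at E16. Of the 16 genes of that list, 7 were higher and 9 lower at P3 than at E16.

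Interferon genes themselves gave low recovered signals, and those of the 3 named here may be understated. Of 12 ligands, 7 had a probe set and at most 3 could be measured, of which 0 were 2-fold different in any comparison. Over all genes, 4.07% to 15.6% passed 2-fold, depending on comparison and direction. Ifnb1, interferon beta, gave 66.9, 73.1 and 89.3, and Ifng, interferon gamma, gave 30.5, 20.3 and 26.2. Ifna1 gave 57.5, 68.9 and 99.3.

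The receptors were present at all stages. Ifngr1 gave 834.7, 785.6 and 869.3 and Ifnar1 gave 290.4, 223.1 and 235.8. Of 18 receptor and JAK-STAT genes with a probe set, 15 could be measured. At E18 against E16, 0 were 2-fold higher and 1 lower, against 8.1% and 8.13% of all genes. The lower one was Jak1, the kinase used by both receptor types, with 867.9, 308.4 and 448.4, 2.81-fold lower at E18. Its other probe sets gave 175.4, 117.5 and 478.1, highest at P3, and 33.3, 12.9 and 31.8, under the floor. Both were lowest at E18 too. Ptpn6, a phosphatase of blood cells, gave 172.7, 114.6 and 265.2, 2.31-fold higher at P3 than at E18. Pias1 gave 787.6, 1075 and 1773, 2.25-fold higher at P3 than at E16, but its other probe sets gave other courses, such as 515.1, 565.9 and 386.3. Irf9, the DNA-binding subunit of the complex that acts on the ISRE, gave 97.3, 104.1 and 126.9.

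The list of other IRF genes and their binding proteins had 8 genes with a probe set, of which 4 could be measured, Irf9 among them. Irf2bp2, a corepressor partner of Irf2, ran opposite to Irf1, with 659.4, 1787 and 493.4. It was 2.71-fold higher at E18 and 3.62-fold lower at P3 than at E18. Its other probe sets were also highest at E18, but their fall to P3 was 1.41-fold, 1.24-fold and at least 2.17-fold. Irf8, a factor of macrophages, gave 86.1, 110.2 and 153.7, and Irf3, which starts the type I response, gave 935.3, 718.3 and 682.9. Other probe sets of Irf3 gave other courses, such as 85.0, 21.8 and 98.1.

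The list of other interferon-stimulated genes was on balance higher at P3. Of 78 on the list, 71 had a probe set, and some of these, such as Usp18, are also in the receptor list. At E18 against E16, 43 could be measured, and 5 of them gained 2-fold while 2 lost it, against 8.1% and 8.13% of all genes; the median log2 difference was 0.00. At P3 against E18, 48 could be measured, and 12 of them gained 2-fold while 1 lost it, against 4.07% and 11.8% of all genes. The median was 0.58. At P3 against E16, 47 could be measured, and 18 of them gained 2-fold while 1 lost it, against 6.56% and 15.6% of all genes. The median was 0.56 against -0.17 over all genes. Over the alternatives, the count of genes higher at P3 against E16 ran from 9 to 30 and the median from 0.39 to 0.72. The floor was reached by 37, 40 and 46 of them at E16, E18 and P3.

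Ifitm1, a membrane protein that blocks virus entry, gave 89.9, 302.6 and 877.5, 9.77-fold above E16 at P3. Rtp4 gave 7.4, 219.8 and 410.8, a rise from E16 to P3 of at least 5.01-fold, and its other probe set stayed under the floor. Mndal, of the interferon-inducible p200 family, gave 38.3, 140.2 and 316.4, a rise of at least 3.86-fold over the same interval, and its other probe set at least 1.99-fold. Phf11d gave 118.3, 298.9 and 422.5, 3.57-fold higher at P3 than at E16. Ifi35 gave 331.9, 467.6 and 1061, 3.20-fold higher, with 1.41-fold in another probe set. These genes are named because they differed most between E16 and P3.

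Ifit2, which binds viral RNA, was the single gene of the list 2-fold lower at P3 than at E16, with 482.0, 114.4 and 112.3, a 4.29-fold difference. Iigp1, an interferon gamma-inducible GTPase chosen after its values were seen, did follow the course of Irf1. Its brightest probe set gave 275.7, 112.8 and 273.1, 2.44-fold lower at E18 and 2.42-fold higher at P3 than at E18. Its other probe set gave 64.9, 4.5 and 63.0. Helz2, also chosen after its values were seen, ran the other way, with 98.0, 455.9 and 161.0, 4.65-fold higher at E18. Several widely used markers of an interferon response gave recovered signals that were low or under the floor. Mx1 gave 34.2, 24.7 and 28.5, Bst2 gave 6.7, 6.4 and 26.3, and Ifit1 gave 38.7, 51.4 and 96.1. The level of Bst2 is known, while those of Mx1 and Ifit1 may be understated. Others were above the floor on every array and lower at P3 than at E16. Among these, Oasl1 gave 177.1, 138.7 and 105.1, and the brightest Rsad2 probe set gave 469.8, 235.5 and 310.7. Of the 47 genes of the list measured at P3 against E16, 36 were higher at P3 and 11 lower.

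**Figure D3:**
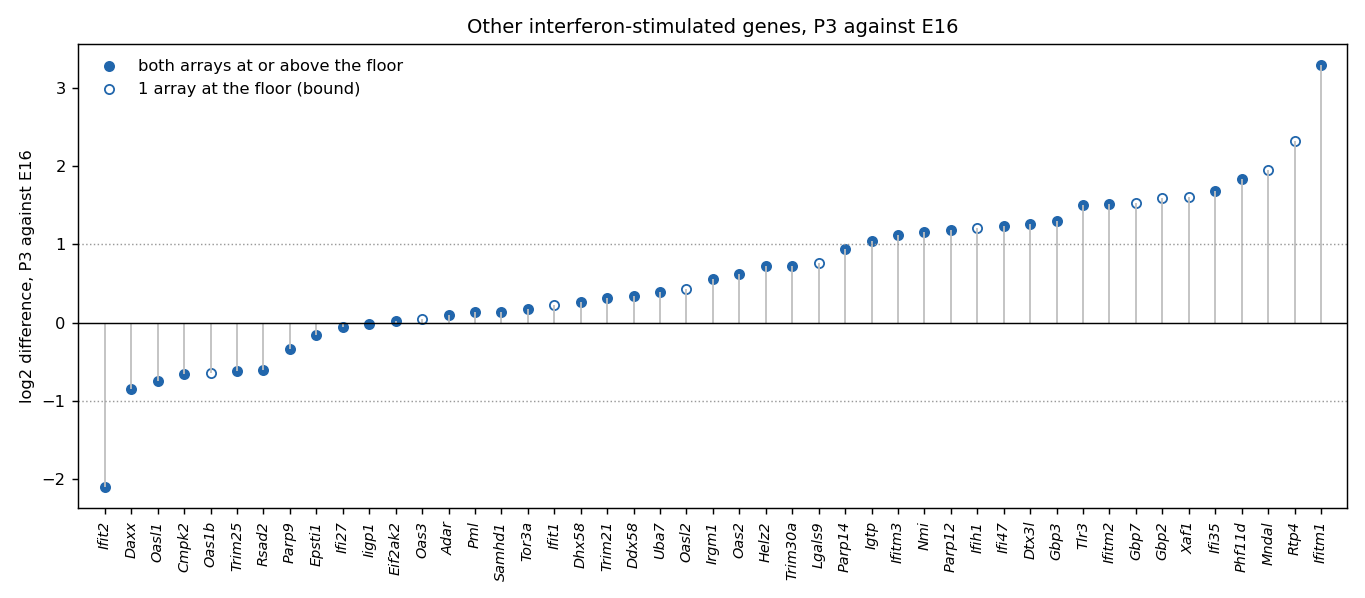
Log2 difference P3 against E16 for the 47 other interferon-stimulated genes measured, ordered by value, 1 array per stage. Open points are bounds with 1 array at the floor, dotted lines mark 2-fold, and 18 genes lie above the upper line and 1, Ifit2, below the lower.

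Of the 14 sensors of viral nucleic acid and their adaptors with a probe set, 11 were measured at P3 against E16, and of these 2 were 2-fold higher and 0 lower, against 6.56% and 15.6% of all genes. Both, Ifih1 and Tlr3, are counted in the interferon-stimulated list as well. Ifih1, the sensor MDA5 of long double-stranded RNA, gave 41.3, 56.7 and 189.4, at P3 at least 2.31-fold above E16. Tlr3, an endosomal sensor of double-stranded RNA, gave 142.0, 198.8 and 401.2, 2.82-fold higher, with its other probe set under the floor.

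Macrophage and leukocyte markers were higher at P3 than at E16, as were B2m and, on balance, the interferon-stimulated genes. The courses differed in the first step. Median log2 differences at E18 against E16 and P3 against E18 were 0.66 and 0.55 for these markers. They were 0.00 and 0.58 for the interferon-stimulated list. Of 23 macrophage and leukocyte markers with a probe set, 12, 16 and 19 reached the floor at E16, E18 and P3. Their summed signal was 4144, 7590 and 11732. Of the 19 measured at P3 against E16, 10 gained 2-fold and 0 lost it, against 6.56% and 15.6% of all genes. The median log2 difference was 1.15. Mrc1, a mannose receptor of tissue macrophages, gave 93.3, 440.0 and 1804, 19.3-fold higher at P3 than at E16. C1qb, a complement chain made by macrophages, gave 79.6, 623.6 and 656.4, and Cx3cr1, a chemokine receptor, gave 74.8, 166.0 and 583.3. Pf4 gave 114.7, 355.1 and 716.9, Cd14 87.3, 184.1 and 287.8, and Fcgr3 51.1, 112.2 and 259.1. Ptprc, the pan-leukocyte marker CD45, gave 148.6, 127.2 and 185.7. No marker of this list had a signal of 0. The part of these cells in the rise of B2m and of interferon-stimulated genes was not tested.

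MHC class II genes mark antigen-presenting cells. Of 10 with a probe set at most 6 could be measured, of which 0 were 2-fold different in any comparison, and Cd74, the invariant chain, gave 99.5, 98.9 and 112.3. Of 9 markers of T, B and NK cells, 7 were under the floor on all arrays and 0 were 2-fold different. The share of all genes past 2-fold was 4.07% to 15.6%, depending on comparison and direction. Of 14 markers of dental mesenchyme and odontoblasts, 10, 14 and 14 reached the floor at E16, E18 and P3.

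**Figure D4:**
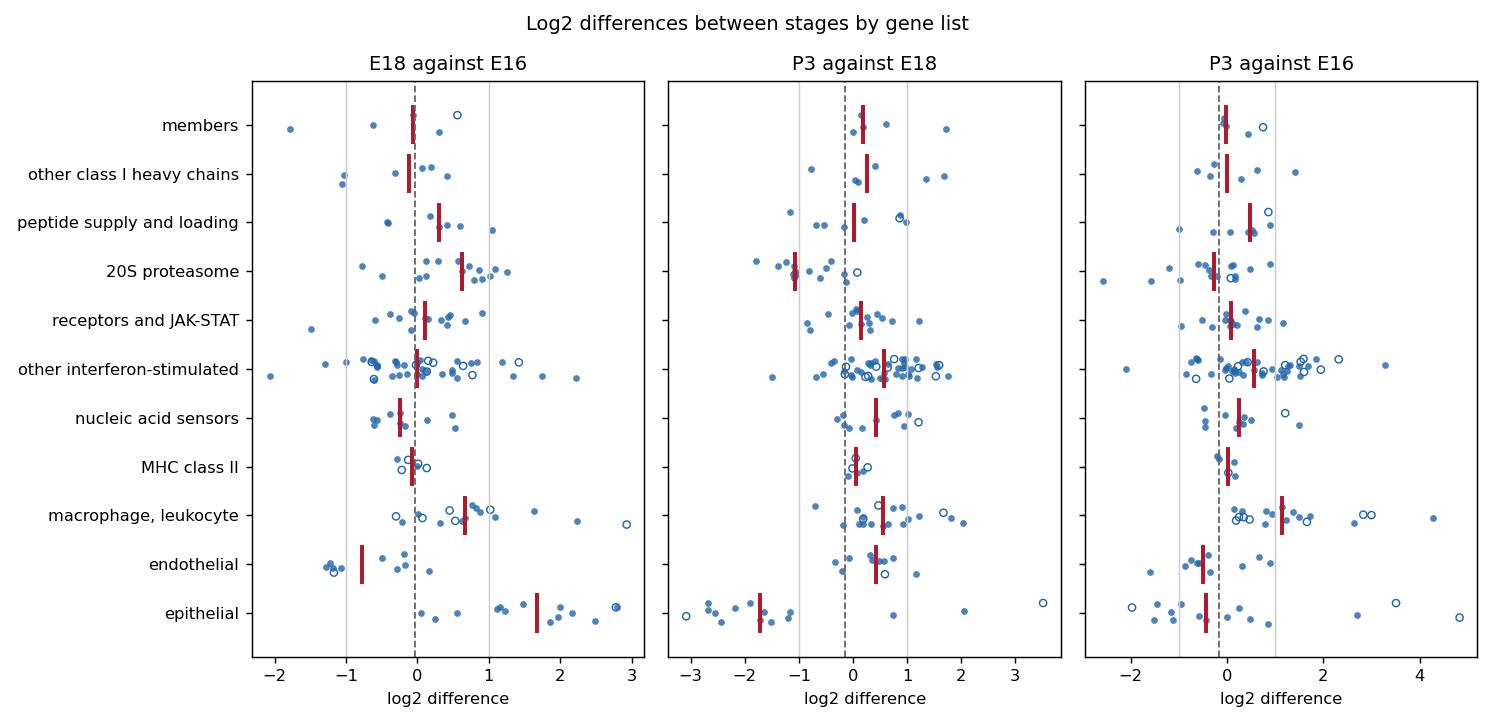
Log2 difference of each measured gene in 11 gene lists for E18 against E16, P3 against E18 and P3 against E16, 1 array per stage; open points are bounds. Red bars are list medians, the dashed line the median of all genes and grey lines 2-fold; the median of the interferon-stimulated list is 0.00, 0.58 and 0.56, and that of macrophage markers 0.66, 0.55 and 1.15.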

How the data were processed

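The authors deposited a ratio for each probe set and array. The software was GCOS (no version named), per the submitters' processing notes; its scaling is not given in the sources used here. In 40754 of 45101 probe sets (90.4%) the middle of the 3 ratios was 1, as when values are divided by their own middle value. In the other 4347 it was below 1, as when a middle signal under 10 is replaced by 10, which fixes the level of these probe sets. Signals were recovered as the smallest steps of 1 decimal that give back the 3 ratios within a relative 3e-07. The design had assumed deposited signals.

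Signals under 82, the pooled median, were set to that floor before log2. Genes were compared where either array reached the floor. Each took the value of its probe set with a single symbol and the highest mean recovered signal. Symbols came from the platform annotation (34945 probe sets with 1 symbol, 932 with several, 9160 not listed).

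The members, lists and rules were chosen with earlier results of these data known. From each pathway list and the macrophage list the text names all genes at least 2-fold different in any comparison if 6 or fewer, otherwise the 6 that differed most from E16 at P3, plus the best known one; others stand beside them for their role, and the remaining marker lists are given as counts and sums. With 1 array per stage no test was run. The number of arrays limits the precision. The recovery was tested on simulated data. Alternatives were 9 planned settings and 1 added after the data were seen. A planned comparison of protein sequences was not run, because no protein table was used here. Python 3.11.15, pandas 2.3.3, numpy 2.4.6, Biopython 1.88 and matplotlib 3.10.9 were used.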

Additional observations from a re-analysis of the deposited data

How the results depend on the processing

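Over the settings tried, no difference past 2-fold changed sign, 71 of 81 counts and medians stayed within 1.5 times (counts) or 1 SD of a probe set (medians, 0.495 to 0.553 on the log2 scale), and 100 of 104 gene values within that SD. Small differences did change sign. After quantile normalization the log2 difference at P3 against E16 was 0.28 for Irf1, 0.31 for H2-D1 and 0.35 for H2-K1, against -0.08, -0.06 and -0.02, and that of H2-D1 at E18 against E16 was 0.02. With the median over all probe sets of a gene, H2-K1 at E18 against E16 was -0.09 in place of -0.62. B2m at P3 against E18 was 0.59 in place of 0.14 after quantile normalization. With no floor, 8 members were measured, because those under the floor then enter. Of these, 2 were 2-fold higher and 2 lower at E18 against E16, 2 higher at P3 against E18 and 2 higher at P3 against E16. With the floor at 41, 1 of 7 measured was higher at E18 against E16 and 1 of 8 at P3 against E16. At a 1.5-fold threshold, 2 of the 5 measured were lower at E18 against E16, 2 higher at P3 against E18 and 1 higher at P3 against E16. Without probe sets that may detect several transcripts, 1 member, Tap1, could be measured at P3 against E18. There 0 were higher, since Irf1 has no other probe set, and no member could be measured at E18 against E16. The shares of all genes given above hold for the main floor and 2-fold. None is given for these other settings, so these counts cannot be set against a share. Tap1 was 1.96 and 1.56 higher on the log2 scale at E18 against E16 with no floor and with the floor at 41, and 2.15 and 1.75 at P3 against E16. The median of the members at P3 against E16 was 0.35 after quantile normalization and 0.23 with the median difference of genes set to 0, against -0.02. Without probe sets that may detect several transcripts, Tap1 was the only 1 measured in that comparison. Its 0.41 is a bound and not a median of the set. Signal over background limits Psmb8, Psmb9 and Irf7, and 1 array per stage limits every value. No paired analysis was possible because each stage has 1 array.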
